A study of Oikopleura dioica with 14 samples.

Results

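This report follows 150 of the 17212 gene identifiers of *Oikopleura dioica* (0.871%), an early set that was abundant in wild-type animals at 4 hours post fertilization (hpf) and nearly without counts in wild-type animals at 6 and 8 hpf. The members were chosen by their wild-type levels alone, in CPM, the count of a gene scaled to the same total in every library. An identifier had to reach 10 CPM in both wild-type libraries at 4 hpf and stay under 5 CPM in all 4 wild-type libraries of 6 and 8 hpf. Identifiers numbered from GSOIDG00005961001 to GSOIDG00006106001, 137 in all, were left out, and 3 of them met these levels. Of the 933 identifiers that met these levels, the 150 with the highest minimum at 4 hpf were kept. The 8 mutant libraries played no part in the choice and are the readout here.

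The libraries hold polyadenylated RNA of whole animals that were Pax37b-/- (mutant) or Pax37b+/+ (wild type), in pools of animals of one genotype. The comparison was made to find genes downstream of Pax37b. Mutant libraries numbered 2 at 4 hpf and 3 at each later stage, and wild-type libraries 2 at every stage. All animals of both genotypes were offspring of Pax37b+/- parents, so wild-type embryos also came from heterozygous mothers. The labels do not give the kind of mutation, the number of animals in a pool or whether replicates of a group came from separate crosses, so p-values measure only the spread between these pools, which may be partly technical. One wild-type library at 8 hpf has a column number that no titled sample carries and is called unnumbered.

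*Oikopleura dioica* is a tunicate that keeps its tadpole shape for life and filters food with a secreted house. Its embryos develop fast, from cleavage through a hatched larva to organ formation within hours. Early animal embryos carry RNA laid down by the mother together with RNA they transcribe themselves, and part of both disappears as tissues differentiate. Pax37b belongs to the Pax3/7 transcription factors, which in vertebrates act at the border of the neural plate and in muscle precursors. None of the 17212 identifiers matched the 17178 genes of the reference table, so no member has a gene name, position, sequence or known role here. For the same reason Pax37b itself and markers of whole-animal tissues were not analysed here.

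The libraries differ in ways that touch every value below. Total counts were 2803712 to 3941906 at 4 hpf and 10350791 to 15682947 later, so 10 CPM stands for 28.0 to 39.4 counts at 4 hpf and 5 CPM for 51.8 to 78.4 counts later. Libraries of 6 and 8 hpf held unequal numbers of abundant genes. Genes at 100 counts or more numbered 2598, 4645 and 3760 in the mutant libraries (replicates 1 to 3) and 2168 and 3674 in the wild-type libraries at 6 hpf. At 8 hpf they numbered 1799, 2390 and 783 in mutants, against 4466 and 2729 in wild type. All 4 hpf libraries were shallower than all later ones, yet 3316 to 4400 of their genes reached 100 counts. Per library, 4101 to 6142 identifiers stood at 10 CPM or more at 4 hpf, and 766 to 4416 did so later. These ranges overlap only through mutant 6 hpf replicate 2 (4416) and wild-type 8 hpf replicate 1 (4241). A lower number of abundant identifiers after 4 hpf was thus a property of most later libraries and not of the early set alone.

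The values that chose the set are given as a description. The minimum wild-type level at 4 hpf was highest for GSOIDG00005393001, which had 2943.2 and 2173.2 CPM in the wild-type libraries, and next highest for GSOIDG00017910001, with 2155.4 and 1504.7 CPM. Just inside the limit of 150 stood GSOIDG00007556001, with 227 and 121 CPM, and just outside it GSOIDG00010161001, with 154 and 120 CPM. At the later stages 569 of the 600 wild-type values of the set lay under 1 CPM. The highest was 4.63 CPM, and the lowest later maximum among identifiers left out at the same 4 hpf level was 5.05 CPM.

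For a yardstick, 946 other identifiers reached the 4 hpf level of the set in both wild-type libraries but were at 5 CPM or more in at least 1 later wild-type library. They are called the comparison genes. In each later wild-type library between 26.8% and 49.9% of them were also under 5 CPM. A low level in 1 later library was thus common among genes abundant at 4 hpf, whereas the early set was low in all 4 by the rule.

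At 4 hpf the early set was abundant in mutants too. The median member stood at 262 and 274 CPM in the mutant libraries and at 303 and 246 CPM in the wild-type libraries. Of the 150 members 143 and 129 reached 10 CPM in mutant replicates 1 and 2, and 125 (83.3%) did so in both. The comparison genes gave 91.0% and all identifiers 17.7%. Together the members summed to 65964 ± 1705 CPM in the mutant libraries and 64254 ± 8718 CPM in the wild-type ones (SD, n = 2 each). The wild-type values chose the members, so nothing is read from the difference between these sums. Across the 150 genes the mean mutant and mean wild-type levels at 4 hpf had a Spearman rank correlation of 0.804. Between the mutant replicates it was 0.612 and between the wild-type replicates 0.729. Single mutant libraries against single wild-type libraries gave 0.631 to 0.729, so the 0.804 of means of 2 libraries is not set against the replicate values. These correlations run over genes of the same libraries, which are not independent replicates.

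The mean mutant level at 4 hpf was within 2-fold of the mean wild-type level for 110 members, over 2-fold higher for 8 and more than 2-fold lower for 32. Both mutant libraries lay below both wild-type libraries for 38 members and above them for 23, and 89 overlapped. Among 8322 identifiers with a mean of 5 CPM or more at 4 hpf the same calls came to 20.2% below and 13.0% above. The wild-type values of this contrast chose the members, so nothing is read from these counts and no test is given. On a log2(CPM + 1) scale the median member was 0.306 lower in mutants (-0.306), against -0.293 for the comparison genes.

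Above wild type, GSOIDG00003568001 had 1282.9 and 1225.2 CPM in mutants, against 628 and 350 CPM in wild-type animals. GSOIDG00009171001 had 318 and 346 CPM in mutants, against 173 and 179 CPM in wild type. The groups did not overlap for either gene, and the lowest mutant value was 1.95 times the highest wild-type value for the first. In the other direction GSOIDG00008948001 had 1.01 and 0.336 CPM in mutants, against 279 and 197 CPM in wild type. GSOIDG00005806001 had 0.761 and 1.01 CPM in mutants, against 126 and 137 CPM in wild type. A library's limit of 3 counts is 0.761 CPM in mutant replicate 1 and 1.01 CPM in replicate 2, so both genes were at or near that limit. They are 2 of the 3 members under 10 CPM in both mutant libraries, and the other, GSOIDG00010936001, had 2.79 and 0 CPM in mutants, against 148 and 131 CPM in wild type. GSOIDG00010936001 is described again below, because its mutant libraries were high later.

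**Figure D1:**
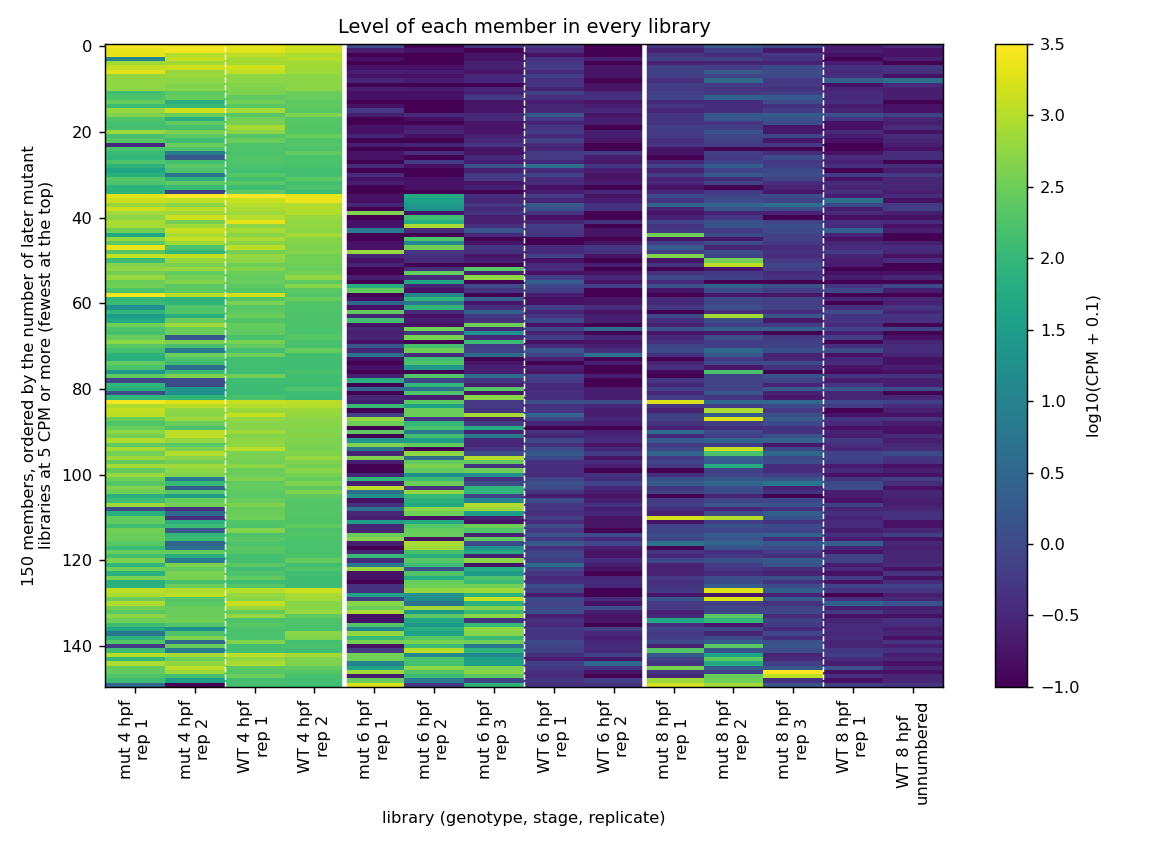
Level of the 150 members (rows) in the 14 libraries (columns, mutant before wild type within each stage) as log10(CPM + 0.1). At 4 hpf nearly all cells are bright in both genotypes. Later the wild-type columns are dark by the choice of the members, while mutant columns hold scattered bright cells, most in 6 hpf replicate 2 (85 members at 5 CPM or more) and fewest in 8 hpf replicate 3 (3 members).

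In mutants the early set was lower at 6 and 8 hpf than at 4 hpf, but it did not disappear as it did, by choice, in wild type. Member levels added up to 65964 ± 1705 CPM in mutants at 4 hpf (SD, n = 2), 15266 ± 2436 CPM at 6 hpf (SD, n = 3) and 8796 ± 4127 CPM at 8 hpf (SD, n = 3). The mutant libraries of 6 hpf held 13247.1, 17971.6 and 14578.3 CPM, and those of 8 hpf 7026.0, 13512.3 and 5848.8 CPM. All 6 lay below both 4 hpf values, 67169.6 and 64758.2 CPM. The corresponding wild-type sums, fixed low by the rule, were 81.7 and 36.9 CPM at 6 hpf and 54.9 and 37.1 CPM at 8 hpf. The 783 identifiers ranked below the set, chosen by the same levels, summed to 35566.3 and 41474.6 CPM in mutants at 4 hpf, 39404.5 to 40712.2 CPM at 6 hpf and 21038.1 to 35465.2 CPM at 8 hpf, so their 6 hpf sums lay within the range of 4 hpf. The comparison genes summed to 637073.1 and 622642.8 CPM in mutants at 4 hpf, 355001.5 to 356657.2 CPM at 6 hpf and 242598.8 to 284645.9 CPM at 8 hpf. In whole animals, fewer cells that express a gene and less RNA per cell cannot be told apart. Every 4 hpf library was also shallower than every later one. A technical difference between the libraries of these stages therefore cannot be told apart from the change with stage.

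Most members were under 5 CPM in 5 of the 6 later mutant libraries, the exception being 6 hpf replicate 2. At 6 hpf 42, 85 and 52 members were at 5 CPM or more in replicates 1 to 3, and at 8 hpf 10, 21 and 3. The share under 5 CPM was therefore 72.0%, 43.3% and 65.3% at 6 hpf, where the comparison genes gave 41.2%, 16.5% and 25.7%. At 8 hpf it was 93.3%, 86.0% and 98.0%, where the comparison genes gave 60.1%, 49.6% and 77.6%. The early set had a larger share under 5 CPM than the comparison genes in each of the 6 libraries. The 783 identifiers that met the same wild-type levels at lower rank gave 84.0%, 64.8% and 73.7% at 6 hpf, above the early set, and 92.2%, 84.7% and 95.5% at 8 hpf, slightly below it. At 4 hpf 33.5% and 49.7% of those 783 were already under 5 CPM in the mutant libraries. Within each stage the mutant libraries ranked in the same order by members at 5 CPM as by genes at 100 counts over the whole library, and the part of that library-wide difference in the members' values was not tested.

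**Figure D2:**
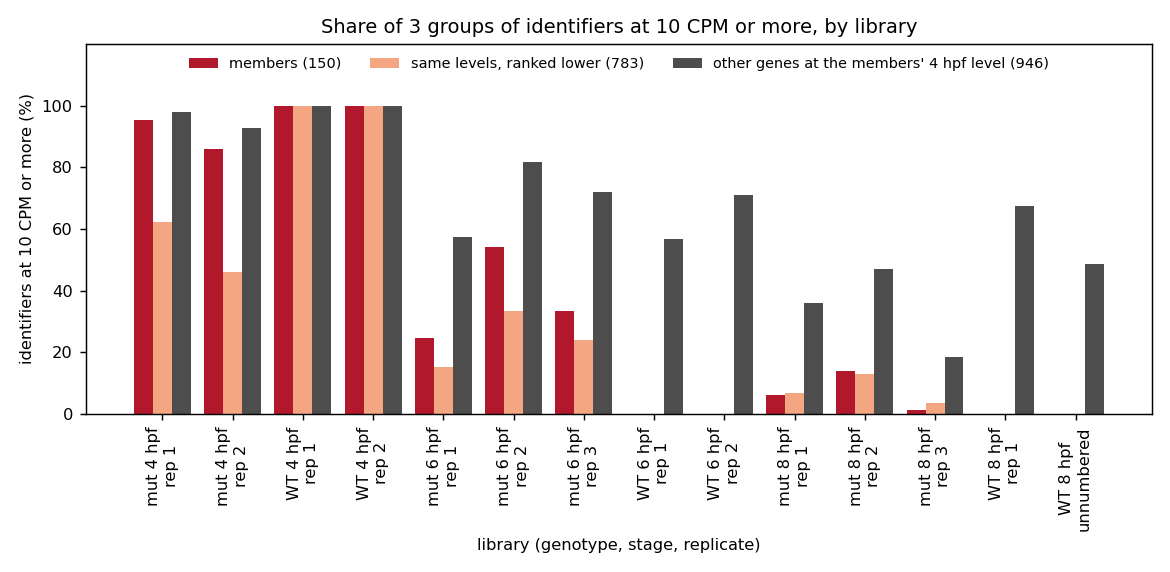
Percent of identifiers at 10 CPM or more in each library for the 150 members, the 783 identifiers that met the same wild-type levels but ranked below them, and the 946 comparison genes. The early set falls to 24.7% to 54.0% in mutants at 6 hpf and to 1.33% to 14% at 8 hpf, and the comparison genes are higher in each of those libraries. The zeros of the first 2 groups in later wild-type libraries follow from the rule.

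The change with stage was tested inside the mutant libraries, with 1 model of all 8 and a mean per stage. For the later stages (mean of the 6 and 8 hpf means) minus 4 hpf, 32 of 148 members tested were called lower and 0 higher (edgeR quasi-likelihood test, Benjamini-Hochberg adjusted p under 0.05). Over all 10873 genes tested 5.29% were called lower and 0.0368% higher. At an unadjusted p under 0.05 there were 64 members, 63 of them lower, and 3234 genes in all. DESeq2 called 36 members lower and 2 higher, where it called 717 of all genes lower and 1701 higher. It left 65 members without an adjusted p. With limma-voom 15 members were called lower and 0 higher, where 33 of all genes were called lower and 124 higher. Among the comparison genes 23 of 946 (2.43%) were called lower by edgeR. Of the identifiers that met the same wild-type levels at lower rank, 89 of 681 tested (13.1%) were. The median log2 fold change was -4.42 over the members tested and 0.844 over all genes tested. The called members lay between -12.65 and -6.32 on the log2 scale, all 6 later libraries were below both 4 hpf libraries for 32 of the 32, and only 2 of them reached 5 CPM in any later library.

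Because the low-count filter can pass a gene through its 4 hpf libraries alone, the count was also made without it. Of the 148 members that passed, 44 had fewer than 2 later libraries at the filter's level of 0.84 CPM, and 27 of the 32 called members were among them. Most calls thus fell on members that needed their 4 hpf libraries, where they are high, to pass. Nothing is therefore read from the share called among members against that over all genes. Without the filter 19 of 150 members (12.7%) were called lower, where 2.64% of 16820 genes were. Those 16820 include the identifiers of low count that the filter removes, so these 2 shares are not compared either. The call also rests on each of 4 libraries. It went to 0 members without mutant 6 hpf replicate 1, or without any one of the mutant 8 hpf replicates 1, 2 and 3, and to 58 members without 6 hpf replicate 2. Calls over all genes moved with it, to 0 lower without 6 hpf replicate 1, to 14, 14 and 21 lower without 8 hpf replicates 1, 2 and 3, and to 1084 lower without 6 hpf replicate 2. In the 4 fits without a member called, the median member was still at -4.43 to -4.19. Other scalings kept the direction of the median member and changed the count, to 44 members on library totals, 6 with RLE factors and 4 with upper-quartile factors, where 939, 137 and 73 of all genes were called lower. They also moved the median of all genes tested to -0.348, 2.29 and 2.77, and the median member to -5.52, -3.01 and -2.62.

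**Figure D3:**
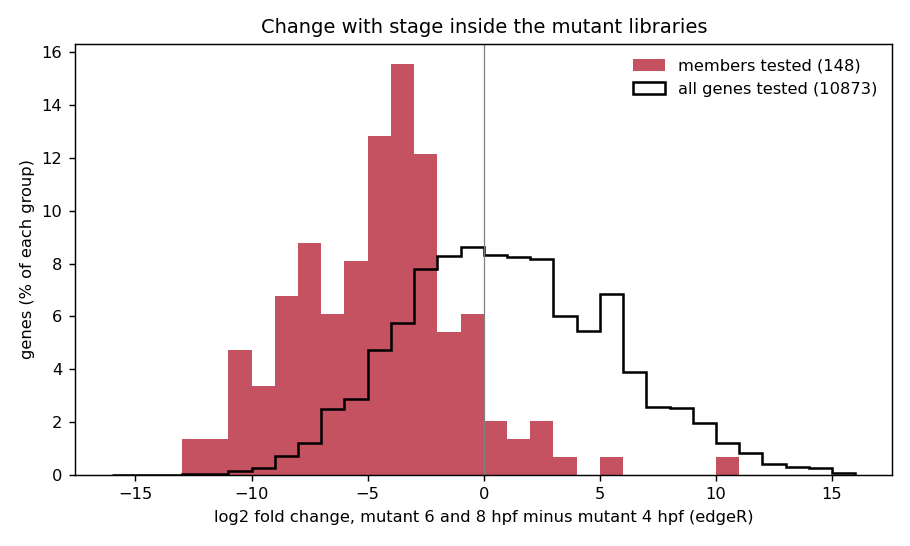
Distribution of log2 fold changes, mutant 6 and 8 hpf minus mutant 4 hpf (edgeR), for the 148 members tested (filled) and all 10873 genes tested (line), each as percent of its group. The members centre at -4.42 and 137 of them are below 0, while all genes tested centre at 0.844.

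GSOIDG00003538001 and GSOIDG00015830001 had the smallest adjusted p among the members. GSOIDG00003538001 had 2168.5 and 2485.7 CPM in mutants at 4 hpf, then 0.136, 0.0647 and 0 CPM at 6 hpf and 0.156, 0.580 and 0.0912 CPM at 8 hpf. Those 6 later values amount to 12 counts in all, on which the fitted change rests, and the later libraries do not overlap those of 4 hpf. Its log2 fold change was -12.65 (SE 2.43, edgeR adjusted p = 0.0145). GSOIDG00015830001 had 2039.9 and 971 CPM in mutants at 4 hpf, then 0, 0 and 0.0767 CPM at 6 hpf and 0.389, 0.290 and 0.456 CPM at 8 hpf. Its log2 fold change was -12.41 (SE 2.61, edgeR adjusted p = 0.0189). Both genes passed the low-count filter only through their 4 hpf libraries. Over the alternatives the adjusted p of these genes ran from 2.38e-08 to 0.445 for GSOIDG00003538001 and from 1.41e-08 to 0.445 for GSOIDG00015830001. Both were also high in wild type at 4 hpf, with 1869.0 and 1387.7 CPM and with 1124.9 and 874 CPM.

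Both members with the highest wild-type level at 4 hpf were called lower by edgeR in mutants at the later stages. GSOIDG00017910001 had 2761.1 and 2495.8 CPM in mutants at 4 hpf and 0 to 1.74 CPM in the 6 later mutant libraries (log2 fold change -10.47, SE 2.39, edgeR adjusted p = 0.0233). GSOIDG00005393001 had 2077.9 and 3156.4 CPM in mutants at 4 hpf, and 58.3 CPM in 6 hpf replicate 2 against 0.0682 to 1.09 CPM in the other 5 later libraries (log2 fold change -8.16, SE 2.41, edgeR adjusted p = 0.0433). Its later level thus came mainly from 1 library. DESeq2 gave it no adjusted p, and limma-voom gave 0.0305. For GSOIDG00017910001 the adjusted p was 8.28e-05 with DESeq2 and 0.0273 with limma-voom. Like every other member, neither was called by edgeR without mutant 6 hpf replicate 1 or without any one of the mutant 8 hpf replicates. At the other end of the set, GSOIDG00002309001 had 91.8 and 88.8 CPM in mutants at 4 hpf and 495 CPM in 6 hpf replicate 3, with 0.0912 to 0.545 CPM in the other later mutant libraries.

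Taken one stage at a time, fewer calls were made. For 6 minus 4 hpf, 0 members were called by edgeR in either direction, where 0.0% of the 10873 genes were called lower and 0.0% higher. At an unadjusted p under 0.05 there were 42 members, 40 of them lower, and 2988 genes in all. DESeq2 called 36 members lower and 5 higher at this step, and limma-voom 13 lower and 1 higher. Over all genes DESeq2 called 955 lower and 1281 higher, and limma-voom 36 lower and 67 higher. The median member was at -1.20 on the log2 scale, against 1.78 over all genes tested. For 8 minus 4 hpf, 2 members were called lower and 0 higher, where 0.441% of genes were called lower and 5.57% higher. The 2 members were GSOIDG00003538001 (log2 fold change -12.18, SE 2.72, edgeR adjusted p = 0.0479) and, named after its value was seen, GSOIDG00008254001 (-13.59, SE 3.09, edgeR adjusted p = 0.048). Both genes passed the low-count filter only through their 4 hpf libraries, and 0 members were called without the filter or when any one of the 8 libraries was left out. At an unadjusted p under 0.05 there were 93 members, 92 of them lower, and 3249 genes in all. DESeq2 called 60 members lower and 2 higher, where it called 497 of all genes lower and 2778 higher. With limma-voom 3 members were called lower and 0 higher, where 19 of all genes were called lower and 21 higher. Here the median member was at -7.17, against 0.367 over all genes tested, and 136 of the 148 members tested were below 0.

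Counted without a model, all 6 later mutant libraries were below both 4 hpf mutant libraries for 71 of the 150 members (47.3%) and above them for 0. Of 8570 identifiers with a mean of 5 CPM or more over the mutant libraries, 13.6% lay below and 6.49% above. Of the comparison genes 28.3% lay below.

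The same level criteria were then applied to the mutant libraries. Of the 150 members 30 (20%) reached 10 CPM in both mutant 4 hpf libraries and stayed under 5 CPM in all 6 later mutant libraries. The comparison genes gave 2.33% and all identifiers 2.65%. Among the 783 identifiers that met the wild-type levels but ranked below the set it was 10.5%. In all, 453 identifiers outside the range left out met the criteria in mutants. They shared 112 identifiers with the 933 of wild type, which is 24.7% of the mutant list and 12.0% of the wild-type list. The mutant criteria ask for low levels in 6 later libraries and the wild-type ones in 4. Of the 30 members 28 were among the 32 called lower in the test.

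The later mutant levels of the members spanned the whole range. Of the 900 values (150 members in 6 libraries) 577 lay under 1 CPM and 110 between 1 and 5 CPM. Another 13 fell between 5 and 10 CPM, 60 between 10 and 100 CPM, and 140 (15.6%) at 100 CPM or more. Of the values of the comparison genes 28.7% lay under 1 CPM and 41.1% at 100 CPM or more. Where a member was at 5 CPM or more in a later mutant library, its level was 0.751 times its own mutant 4 hpf mean in the median of the 213 values, and above that mean in 87 of them (40.8%). Taking only values of 5 CPM or more raises this ratio, and it was not computed for the comparison genes. Nothing is therefore read from it about how much of their level members kept.

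Which members stayed high varied from library to library. Of the 150, 35 were under 5 CPM in all 6 later mutant libraries, 48 reached it in 1 library, 44 in 2, 15 in 3 and 8 in 4, and none in 5 or 6. The 35 are 23.3% of the set, where 37.7% of the 783 identifiers ranked below the set, 3.49% of the comparison genes and 51.1% of all identifiers were under 5 CPM in all 6. Among the comparison genes 12.4% reached 5 CPM in all 6. At 6 hpf 108 members reached it in at least 1 mutant library and 14 in all 3. At 8 hpf 29 reached it in at least 1 and 0 in all 3. By stage, 86 members did so at 6 hpf only, 22 at both stages and 7 at 8 hpf only. Mutant 6 hpf replicates 2 and 3 had 40 such members in common, 47.1% of the list of replicate 2 and 76.9% of that of replicate 3. Mutant 8 hpf replicates 1 and 2 had 4 in common, 40% and 19% of their lists.

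How far single members carried the later mutant sum differed between libraries. The most abundant member made up 12.6%, 5.73% and 9.19% of the sum in the mutant libraries of 6 hpf, and 24.2%, 13.8% and 77.8% in those of 8 hpf. In mutant 8 hpf replicate 3 that member was GSOIDG00000672001, which had 4547.8 CPM there and 0.389 and 0.676 CPM in 8 hpf replicates 1 and 2. At 6 hpf it had 740, 189 and 495 CPM in mutants, and at 4 hpf 262 and 688 CPM. In wild type it had 205 and 194 CPM at 4 hpf and at most 0.328 CPM later. GSOIDG00002504001 reached 1860.7 CPM in mutant 8 hpf replicate 2 and 605 CPM in mutant 6 hpf replicate 1, with 0.153 to 1.82 CPM in the other 4 later mutant libraries. GSOIDG00005667001 likewise had 1736.6 CPM in mutant 8 hpf replicate 2 and 1340.3 CPM in mutant 6 hpf replicate 3, with 17.3 CPM in 6 hpf replicate 2 and 0.546 to 1.64 CPM in the remaining 3. At 8 hpf each of these 3 genes was high in 1 mutant library and under 2 CPM in the others, while at 6 hpf GSOIDG00000672001 was high in all 3 mutant libraries.

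GSOIDG00010936001 was low in mutants at 4 hpf and high in 4 of the 6 later mutant libraries. It had 2.79 and 0 CPM at 4 hpf, then 1669.6, 0.388 and 87.7 CPM at 6 hpf and 1548.5, 744 and 1.37 CPM at 8 hpf. Later values of 0.388 and 1.37 CPM lay between the 4 hpf ones and the other 4 above them, and the log2 fold change of 10.57 (SE 2.42) did not pass the test (edgeR adjusted p = 0.096). GSOIDG00008948001, with 1.01 and 0.336 CPM at 4 hpf, had 4.84, 527 and 655 CPM at 6 hpf and 0.193 to 0.365 CPM at 8 hpf in mutants. Its log2 fold change of 5.13 (SE 2.63) did not pass either (edgeR adjusted p = 0.314). These are the 2 members with a positive change of smallest p. DESeq2 called both, at adjusted p = 8.99e-06 and 0.00307, and limma-voom did not, at 0.0697 and 0.0706.

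**Figure D4:**
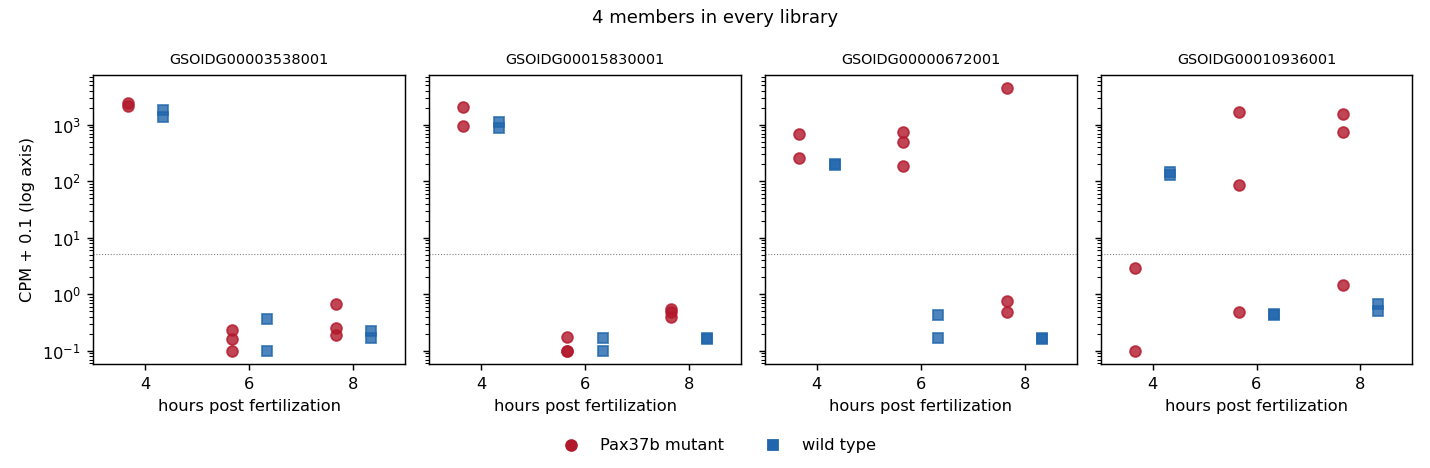
CPM + 0.1 on a log axis for 4 members in every library, by hours post fertilization, with mutant libraries as circles left of wild-type libraries as squares and a dotted line at 5 CPM. The first 2 genes drop below 1 CPM in all later libraries of both genotypes. GSOIDG00000672001 and GSOIDG00010936001 are spread over more than 3 orders of the log axis among later mutant libraries, and their wild-type squares stay under 1 CPM.

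The members were spread over the identifier order, a property the rule did not use beyond the range left out. Of the members 27.3%, 26.7%, 30.0% and 16% fell into the 4 successive ranges of 5000 identifier numbers, lowest first, against 27.6%, 27.5%, 27.6% and 17.4% of all identifiers. The longest stretch of members in consecutive places was 2 genes, and there were 5 such pairs. Thus 10 of the 150 members (6.67%) had another member next to them. Of the 946 comparison genes 17% had one of their own, but a longer list has more neighbours by its size alone. The 2 shares are therefore not compared, and whether 6.67% differs from that of a random list of 150 was not tested. Whether identifier order follows the chromosomes was not tested.

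Neighbouring members did not always share their mutant course. GSOIDG00006300001 and GSOIDG00006301001 were both near 0 in the 6 later mutant libraries, at no more than 0.0778 and 0.193 CPM, after 160 and 185 CPM and 717 and 763 CPM at 4 hpf. Both were called lower (edgeR adjusted p = 0.0226 and 0.0233), and both passed the low-count filter only through their 4 hpf libraries. With limma-voom GSOIDG00006301001 was called (adjusted p = 0.0267) and GSOIDG00006300001 was not (0.0695). GSOIDG00006142001 had 835, 23.9 and 117 CPM in mutants at 6 hpf, while its neighbour GSOIDG00006143001 had 0 CPM in all 3. At 4 hpf the first had 219 and 294 CPM in mutants and the second 598 and 444 CPM. GSOIDG00015829001, next to GSOIDG00015830001, had 20.6 CPM in mutant 6 hpf replicate 2, where its neighbour had 0. In the pair GSOIDG00006171001 and GSOIDG00006172001 the first stayed at or under 0.467 CPM in the later mutant libraries, and the second reached 182 CPM in 6 hpf replicate 2. GSOIDG00011594001 and GSOIDG00011595001 each had a single later mutant library above 100 CPM, at 201 CPM in 6 hpf replicate 2 for the first and at 1206.2 CPM in 8 hpf replicate 2 for the second. Reads of near-identical neighbouring copies can be divided between them by the estimation of counts, and which members have such copies was not analysed here.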

How the data were processed

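Polyadenylated RNA from genotyped and pooled whole animals was sequenced with a low-input library kit, per the labels' protocols. The authors deposited estimated counts per gene identifier in 1 table per stage, not scaled to depth and not pooled over replicates. The submitters' processing notes name kallisto 0.46.0 and DESeq2. For the transcript index and any filters, nothing is stated in the labels or notes. Values with a fractional part made up 4.37% to 11.3% of each library, and counts were rounded before testing. CPM used the library total. Genotype and stage came from the sample titles. Replicates differed beyond sampling noise. Chi-square divided by its degrees of freedom came to 160 for the mutant pair of 4 hpf and 102 for the wild-type pair. Replicate pairs of 6 and 8 hpf ran from 1408.3 to 2508.7. Deeper libraries raise this statistic, and the later ones were deeper, so how far the scatter itself grew was not tested.

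The 8 mutant libraries were fitted with edgeR 4.0.16 in R 4.3.3 (filterByExpr, TMM factors, quasi-likelihood F test, two-sided, Benjamini-Hochberg adjustment over all genes tested, threshold 0.05). The TMM factors of the mutant libraries were 2.03 and 1.78 at 4 hpf and 0.405 to 1.43 later. Each standard error was computed from the fit's working weights and its moderated dispersion. Alternatives were other scalings and filters, DESeq2 1.42.0 on all identifiers, limma-voom (limma 3.58.1), a replicate block, other member criteria, thinning, and leaving out each library. Fits of mutant against wild type were not made, because wild-type values chose the members. Named members follow a fixed rule of at most 2 per direction in each comparison, together with every pair of neighbours, unless a sentence says otherwise. Members, lists and rules were chosen with earlier results of these data known. Depth was 2803712 to 15682947 counts per library, and limits of 3 counts cover counting error only, since reads without molecular identifiers are not independent molecules. Tables and plots used Python 3.11.15, numpy 2.4.6, pandas 2.3.3 and matplotlib 3.10.9.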

Additional observations from a re-analysis of the deposited data

Results flagged for a closer look

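For 2 members the stage change ran in opposite directions in the genotypes. All 3 mutant libraries of 6 hpf lay above both mutant 4 hpf libraries, while the wild-type libraries fell by the choice of the members, and the difference between genotypes was not tested. The same count over all identifiers is not given here, so nothing is read from the number of members. GSOIDG00008948001 averaged 396 CPM in mutants at 6 hpf. Its 6 minus 4 hpf change of 10.25 on the log2 scale (SE 2.90) did not pass with edgeR (adjusted p = 0.144) and passed with DESeq2 (9.06e-07) and limma-voom (0.032). GSOIDG00016674001, named after its values were seen, averaged 373 CPM in mutants at 6 hpf, with 373, 396 and 350 CPM there and 203 and 3.03 CPM at 4 hpf, and its log2 fold change of 3.52 (SE 2.72) did not pass with edgeR (adjusted p = 0.484) or limma-voom (0.32) and passed with DESeq2 (0.0156).

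For 5 named members every mutant library was below the wild-type ones at an earlier stage and above them at a later stage, a difference that was untested in each case. Here too the count over all identifiers is not given, and the number of members is not read as a result. Both low levels at the later stages and high levels at 4 hpf in wild type were set by the rule. At 4 and 6 hpf these were GSOIDG00008948001, with 396 CPM on average in mutants at 6 hpf, and GSOIDG00010936001, with 586 CPM. For GSOIDG00010936001 the lowest mutant library at 6 hpf, replicate 2, had 0.388 CPM (6 counts). The highest wild-type library had 0.356 CPM (5 counts), so this switch rests on a few counts. At 4 and 8 hpf the members were GSOIDG00010936001, GSOIDG00005667001 and GSOIDG00005806001. They averaged 764, 580 and 0.568 CPM in mutants at 8 hpf, the last of which is a few counts per library. The 580 CPM came mainly from mutant replicate 2, with 1736.6 CPM. In the other mutant libraries of 8 hpf GSOIDG00005667001 had at most 1.64 CPM, against at most 0.319 CPM in wild type. GSOIDG00010936001 had 1.37 CPM (15 counts) in mutant replicate 3, against at most 0.574 CPM in wild type. GSOIDG00006143001 switched between 6 and 8 hpf at levels near 0, with 0.495 CPM on average in mutants at 8 hpf.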

How the results depend on the processing

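The count of members lower at the later mutant stages, 32 as reported, was 36 with DESeq2, 15 with limma-voom, 6 with RLE and 4 with upper-quartile factors, 19 without the low-count filter and 0 with the replicate block. It was 0 to 58 when 1 later library was left out. Without the limit of 150 members it was 121 of 829 tested, where 575 of all genes were called lower. Without mutant 8 hpf replicates 1 and 3, which had the fewest genes at 100 counts of the later mutant libraries, an alternative added after the data were seen, it was 0. At 6 minus 4 hpf, 0 as reported, DESeq2 called 36, limma-voom 13, and leaving out any 1 of the later libraries 0. Leaving out a 4 hpf library left 1 in that group, with the median member at -1.32 without replicate 1 and -0.762 without replicate 2. The median of all genes tested was then 3.2 and 2.9. At 8 minus 4 hpf, 2 as reported, DESeq2 called 60. The list without its limit held 7, where 48 of all genes were called lower. RLE, upper-quartile and library-total scaling, both other filters, the replicate block and each left-out later library (0 to 0) gave 0. The added alternative left 1 library at 8 hpf, with the median member at -7.71. DESeq2 left 65 members without an adjusted p. The cause of these differences was not tested.

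The count in the report of members at 10 CPM in both mutant 4 hpf libraries, 125, was 402 of 933 without the limit of 150 and 125 to 143 with 1 library left out. The 35 members under 5 CPM in all later mutant libraries became 330 of 933 and 35 to 61, the highest without 6 hpf replicate 2. The 30 that met both criteria became 112 of 933 and 30 to 51. After thinning every library to 2803712 counts they were 125, 37 and 32. Same-numbered mutant libraries of different stages had deviations that correlated at -0.0161 to 0.0146 over 7 pairs. The 2 libraries at 4 hpf mirror each other in these values (-0.00284 and 0.00284 against 6 hpf replicate 1), so the pairs are not independent. Whether same-numbered libraries share a cross or batch therefore cannot be told from them. The fits rest on 2 libraries at 4 hpf and a biological coefficient of variation of 1.59.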
